A study of Homo sapiens with 4 samples.

Results

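At 418 BRPF3 binding regions, the peak called in hydroxyurea-treated RKO cells was at least 1.4 times as wide as the peak called at the same place in asynchronous cells, while the mimosine peak kept a middle share of the asynchronous width. These regions were chosen by measured peak widths. Peaks of the 3 BRPF3 lists on chromosomes 1 to 22 that overlapped by at least 1 bp were merged into 13623 regions. Of these, 8456 held exactly 1 peak of each list, and 8313 of those were under 8000 bp wide and are called eligible here. A member had a ratio of HU to asynchronous width of 1.4 or more and a ratio of mimosine to asynchronous width from 0.45 to below 0.9. The widths are therefore given as a description, with no test.

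BRPF3 is a scaffold subunit that joins a MYST-family histone acetyltransferase, such as HBO1 (KAT7), to chromatin through its PHD, bromodomain and PWWP modules. HBO1 complexes acetylate histone H3 and have been linked to transcribed genes and to the firing of replication origins. Mimosine, a plant amino acid that chelates iron, holds cells near the start of DNA synthesis. Hydroxyurea (HU) blocks ribonucleotide reductase, which lowers deoxynucleotide pools and stalls replication forks.

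BRPF3 was mapped by chromatin immunoprecipitation and sequencing (ChIP-seq) in RKO, an established human colon carcinoma line, with 1 library in each of 3 conditions. Asynchronous cells had no treatment. Mimosine cells were kept in 0.5 mM mimosine for 22 h. The HU cells went through the same mimosine block, then 3 h of release, then 3 mM HU for 1 h 30 min. A rabbit IgG library from the HU condition was the control behind all 3 peak lists, so the asynchronous and mimosine lists have no IgG control of their own condition. A rabbit antibody raised against BRPF3 was used for the 3 mapped conditions, and the libraries' description field names other BRPF proteins. The lists held 12759 asynchronous, 11235 mimosine and 13040 HU peaks on chromosomes 1 to 22. Read depth is unknown. With 1 library per condition there is no replicate check, and every interval below covers counting error only.

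The change ran almost entirely towards wider HU peaks. The 418 members made up 5.03% of the 8313 eligible regions. Among the 6863 eligible regions in the same middle range of mimosine width, they made up 6.09%, whereas 18 regions (0.262%) were narrowed in HU cells by the same factor, that is, with an asynchronous peak at least 1.4 times as wide as the HU peak. Thus 95.9% of the regions past either limit were wider in HU cells. HU peaks were wider over the eligible regions as a whole: the HU peak was the wider in 75.1% of them, and the median ratio was 1.09. When each ratio was first divided by that median, 181 regions were widened and 63 narrowed, so the widened share was 74.2%. That centring was added after seeing the data.

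**Figure D1:**
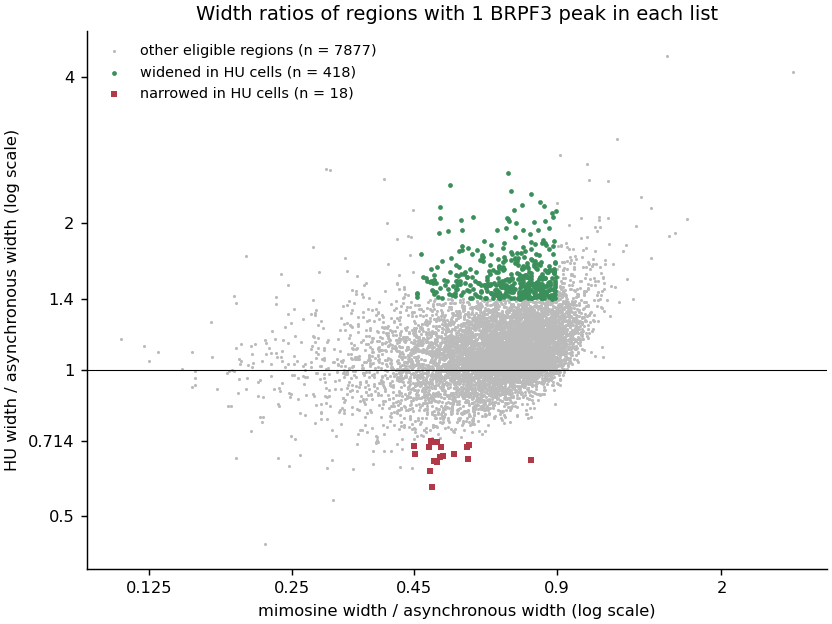
Ratio of HU to asynchronous peak width (vertical axis, log scale) against the ratio of mimosine to asynchronous width (horizontal axis, log scale), with 1 point for each of the 8313 eligible regions. The 418 members fill the box above 1.4 and between 0.45 and 0.9, and the 18 regions narrowed by the same factor lie at the bottom, with the line at 1 marking equal widths.

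Limits on the mimosine ratio set part of this count. With any mimosine ratio, 607 eligible regions (7.30%) had an HU peak at least 1.4 times as wide as the asynchronous peak. Narrowed regions then numbered 39, so 94.0% of the regions past either limit were wider in HU cells. The 607 widened regions included 40 of 775 (5.16%) whose mimosine peak was under 0.45 of the asynchronous width. They also included 149 of 675 (22.1%) whose mimosine peak was 0.9 or more of it. Both ratios have the asynchronous width as denominator, so a narrow asynchronous call raises both and a wide one lowers both. A further 10 regions past the ratio of 1.4 were 8000 bp or wider.

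In the members, the asynchronous and mimosine peaks were narrow and the HU peak was slightly wide. The asynchronous peak had a median width of 2243 bp (quartiles 1772 and 2800 bp), against 2941 bp in the 7895 other eligible regions. The mimosine peak had a median of 1583 bp (quartiles 1181 and 2162 bp), against 2000 bp. In HU cells the median was 3413 bp (quartiles 2721 and 4341 bp), against 3192 bp in the other regions. The largest gap between the groups was therefore in the asynchronous list, whose width is the denominator of the rule. The median HU to asynchronous ratio was 1.51, with a range of 1.4 to 2.54, and the median mimosine to asynchronous ratio was 0.746.

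**Figure D2:**
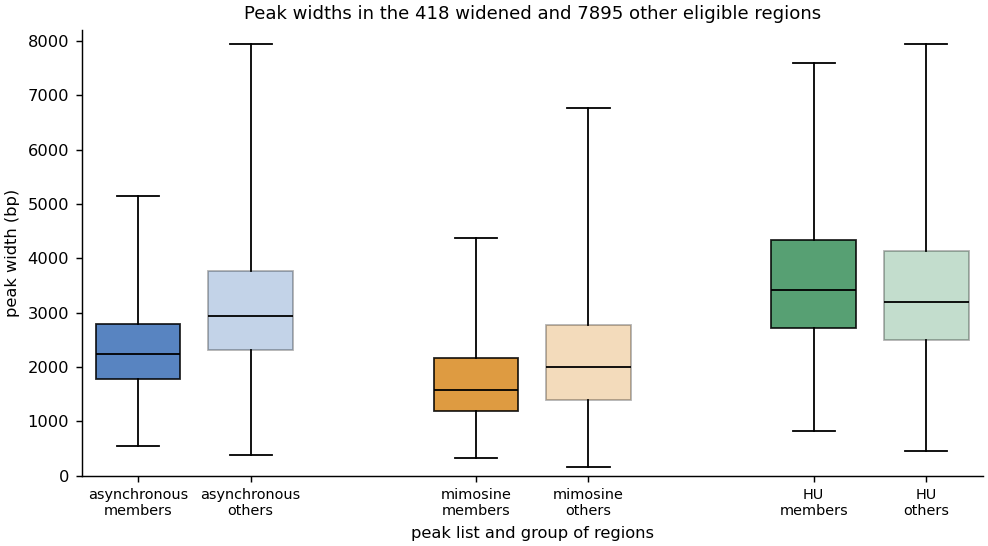
Peak width in bp in each list for the 418 members and the 7895 other eligible regions. Boxes span the quartiles with the median as a line, and whiskers reach the lowest and highest value. Members sit below the other regions in the asynchronous (median 2243 against 2941 bp) and mimosine lists, and slightly above them in the HU list (3413 against 3192 bp).

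The rule's limits on the mimosine width can be lifted. Over the 607 regions chosen by the HU to asynchronous ratio alone, the mimosine peak had a median width of 1765 bp (95% interval of the median 1660 to 1881 bp). It was 1994 bp (1968 to 2021 bp) in the 7706 eligible regions below the ratio of 1.4. The asynchronous peak was narrower in the 607 regions too, with a median of 2287 bp against 2957 bp, as a choice on that ratio favours, and mimosine width followed asynchronous width over the eligible regions (Spearman's rho 0.845 across 8313 regions, a description). The narrower mimosine peaks are therefore no independent result. Relative to the asynchronous peak the mimosine peak was wider there, with a median ratio of 0.782 against 0.688, and relative to the HU peak it was narrower, with 0.499 against 0.641. Both denominators enter the choice.

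Large ratios were few. The ratio was between 1.4 and 1.5 in 195 members (46.7%), from 1.5 to below 1.75 in 171, from 1.75 to below 2 in 32, and 2 or more in 20. Within 0.05 above the limit there were 109 members, and within 0.05 below it 169 regions that missed it. The 2 members nearest above it were chr17:40071931-40076087 (ratio 1.4, with 2969 bp asynchronous, 2234 bp mimosine and 4157 bp HU) and chr3:129344576-129347587 (ratio 1.4, with 2151, 1892 and 3012 bp in the same order). Just outside were chr6:99968432-99970955 (1803, 1334 and 2524 bp) and chr19:34744617-34747401 (1991, 1510 and 2785 bp).

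The HU peak added a median of 1192 bp to the asynchronous width (range 275 to 3641 bp). In 378 of the 418 members (90.4%, 95% interval 87.2 to 93.1%) it reached past both ends of the asynchronous peak. Among the 4740 regions in the same mimosine range whose HU peak was wider by less than the limit, 2926 (61.7%, 60.3 to 63.1%) did so. The remaining 40 members fell short of the asynchronous peak at 1 end, by at most 236 bp. Reaching past both ends depends in part on how much length was added, which the rule sets (the 4740 regions added a median of 338 bp), so the difference in this share is a description.

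The added length was uneven between the ends. Compared with regions of smaller gains, it was less uneven as a share of the net gain and more uneven in bp. The side that gained more took a median of 80.3% of it (quartiles 66.6 and 92.2%), or 945 bp against 224 bp on the other side. In the 4740 regions of the same mimosine range with a smaller gain, the larger side took a median of 89.8% of the net gain, a share that passes 100% where the other end fell short. Their medians in bp were 309 bp on the larger side and 33 bp on the other. In 215 members (51.4%, 46.5 to 56.3%) 1 side held at least 80% of the net gain, against 2958 of those 4740 (62.4%, 61.0 to 63.8%). This difference too belongs to the contrast the rule used. In 53 members (12.7%) both sides gained 500 bp or more, against 18 of the 4740 regions with a smaller gain (0.380%). Neither genomic direction was preferred: the larger gain was on the side of lower coordinates in 197 members (47.1%, 42.3 to 52.0%). The centre of the HU peak lay a median of 349 bp from the asynchronous centre, against 131 bp in other eligible regions, and 131 members (31.3%) were shifted by 500 bp or more. In the 4740 regions with a smaller gain the median shift was 130 bp, and 167 of them (3.52%) were shifted by 500 bp or more. The shift uses the same peak ends as the widths in the rule, so it is a description. In the 52 members of ratio 1.75 or more, 39 had at least 80% of the gain on 1 side, against 176 of the 366 below that ratio. This splits few members on the ratio that the rule used, and the sides share its peak ends, so it too is a description.

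**Figure D3:**
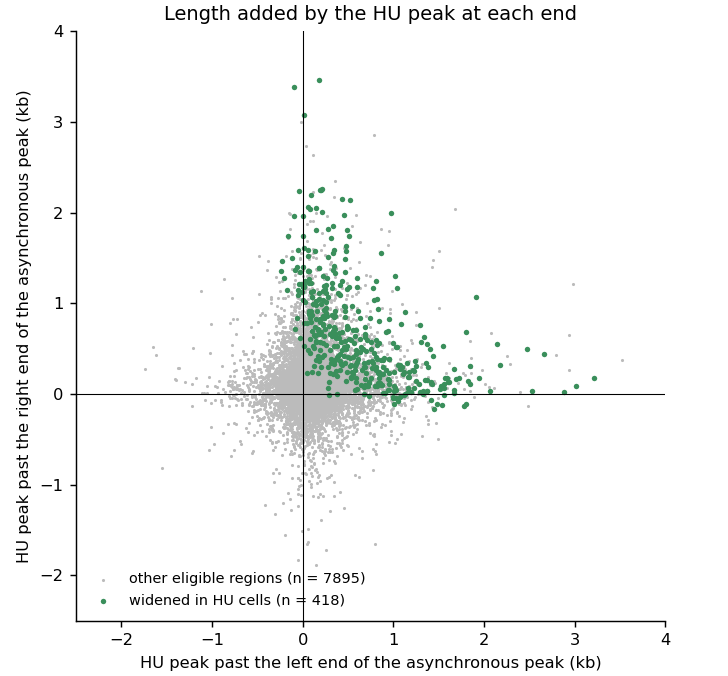
Length in kb by which the HU peak reached past the left (horizontal axis) and right (vertical axis) end of the asynchronous peak, with 1 point per eligible region. The larger side took a median of 80.3% of the gain in members, and 378 of 418 lie above 0 at both ends.

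The members described next have the largest ratios among those with a score of 100 or more in all 3 lists. Region A, chr10:120788519-120794516, had a 2357 bp asynchronous peak, a 1674 bp mimosine peak and a 5998 bp HU peak, a ratio of 2.54. Its HU peak ran 3457 bp past the right end and 184 bp past the left, the largest gain of any member in bp. Region B, chr16:50775252-50779313, had 1880 bp asynchronous, 963 bp mimosine and 4062 bp HU (ratio 2.16), with 1853 bp of the gain on the right. At both, the mimosine peak lay inside the asynchronous one, so the far part of the HU peak was called in HU cells only.

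Region C, chr17:43564387-43569110, had widths of 2229 bp asynchronous, 2003 bp mimosine and 4724 bp HU (ratio 2.12). Its mimosine ratio of 0.899 was the highest of all members, so the first 2 lists nearly matched there while the HU peak gained 2180 bp on the left. Region D, chr5:97799215-97804903, had 2713, 2389 and 5689 bp (ratio 2.10) and gained 2475 bp on the left. Region E, chr19:52593839-52599840, had 2909, 2568 and 6002 bp (ratio 2.06), with 2657 bp gained on the left. It also scored high: on a scale where 100 is the highest score of a list, its asynchronous peak was at rank percentile 87.9, its mimosine peak at 89.0 and its HU peak at 96.1.

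Region F, chr16:2961027-2967051, had 2938, 2081 and 6025 bp (ratio 2.05), and 3078 of the 3087 bp gained lay on the right. Region G, chr3:129153841-129160523, had 3299, 2357 and 6683 bp (ratio 2.03), with 3212 bp gained on the left. Region H, chr3:52079405-52084204, had 2379, 2026 and 4800 bp (ratio 2.02). It was the exception among the 8, with gains of 861 bp on the left and 1560 bp on the right, and another merged region began 38 bp beyond its right end. Scores did not follow width throughout: the rank percentile of F was 61.8 for the asynchronous peak and 55.5 for the HU peak, whereas C had 43.0 and 72.2.

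**Figure D4:**
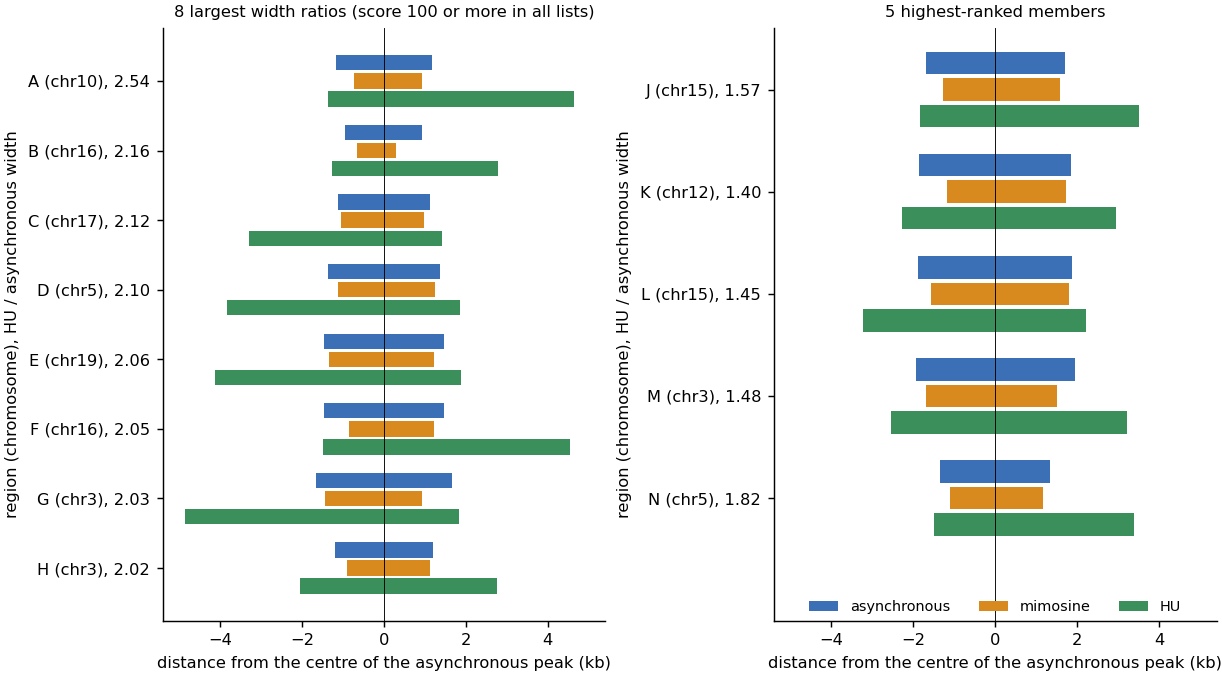
Peaks of the 8 members of largest ratio (left panel, A to H) and of the 5 members ranked highest in all lists (right panel, J to N), drawn as bars in kb from the centre of the asynchronous peak, with the HU to asynchronous ratio beside each. In 7 of the 8 regions on the left the HU bar runs out mainly on 1 side, while the mimosine bar stays within the asynchronous bar in every region of both panels.

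Other members that gained over 3 kb included chr4:83809575-83817014, with 4057 bp asynchronous, 3284 bp mimosine and 7347 bp HU, where the HU peak began 93 bp inside the asynchronous one and gained 3383 bp at the other end. At chr7:99750466-99757343 the widths were 3776, 3162 and 6878 bp, with 3014 bp gained on the left. Both had another merged region close by on the side of the gain, 236 bp and 1044 bp away. Only 23 of the 418 members (5.50%) gained 2000 bp or more on 1 side, so gains of this size were rare within the group. Of the 7895 other eligible regions, 21 (0.266%) did so. The rule favours added length, so these shares are a description.

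Widening was also present at strong peaks, though less often. Eligible regions were sorted by asynchronous rank percentile into 5 equal groups. Members made up 28 of 1663 regions (1.68%) in the highest group and 148 of 1663 (8.90%) in the lowest. The median HU to asynchronous ratio over all eligible regions was 1.07 in the highest group and 1.12 in the lowest. Score and asynchronous width come from the same peak call, and that width enters the rule, so the difference in share is a description. The 5 members whose lowest rank in the 3 lists was highest were all at rank percentile 88.7 or above in every list. Region J, chr15:57210011-57215359, had 3400 bp asynchronous, 2857 bp mimosine and 5349 bp HU (ratio 1.57). Region K, chr12:12712222-12717432, had 3714, 2908 and 5211 bp (ratio 1.4). Region L, chr15:59221692-59227135, had 3749, 3348 and 5444 bp (ratio 1.45).

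Region M, chr3:119011716-119017464, had 3878, 3182 and 5749 bp (ratio 1.48). Region N, chr5:149864270-149869134, had 2672, 2278 and 4865 bp (ratio 1.82), with 2047 bp of its gain on the right. All of these but N had an asynchronous peak above the members' upper quartile of 2800 bp. Asynchronous peaks had an authors' score of 3100 or more in 3 members (0.718%), against 568 of 7895 other eligible regions (7.19%). HU peaks reached that score in 8 members (1.91%), against 578 of the others (7.32%). Mimosine peaks reached it in 0 members, against 155 of the others (1.96%). Score and width come from the same peak call, so these lower shares of top scores are a description.

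Over the whole group, scores were lower than in the other eligible regions in all 3 lists. For asynchronous peaks the median rank percentile was 45.4 (95% interval 41.9 to 49.8), against 60.2 in the others. It was 44.4 (40.3 to 47.7) against 54.2 for mimosine peaks, and 49.0 (47.0 to 52.9) against 60.9 for HU peaks. The HU rank was above the asynchronous rank in 280 of 418 members (67.0%), against 55.0% of the others. Score and width come from the same peak call, so this belongs to the same contrast as the rule. Scores below 100 were counted in each list. In 27 members (6.46%) the asynchronous score was below 100, against 1.05% of the others. In 8 (1.91%, 0.830 to 3.74%) the HU score was below 100, against 1.06%. For 95 members (22.7%) the mimosine score was below 100, against 15.5%.

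Members were a larger share of eligible regions where the asynchronous peak was narrow. Eligible regions were sorted by asynchronous width into 5 equal groups. Members made up 183 of 1668 regions (11.0%, 9.51 to 12.6%) in the narrowest group, 382 to 2130 bp, and 20 of 1660 (1.20%, 0.737 to 1.85%) in the widest. The median HU to asynchronous ratio over all eligible regions moved less, from 1.14 to 1.05. A fixed ratio asks for fewer added bp at a narrow peak, and the asynchronous width enters the rule.

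The mimosine peak lay inside the HU peak in 416 of 418 members (99.5%, 98.3 to 99.9%) and inside the asynchronous peak in 360 (86.1%, 82.4 to 89.3%). In the other eligible regions these shares were 98.3% and 90.0%. In the 4740 regions of the same mimosine range whose HU peak was wider by less, they were 99.2% and 93.7%. The rule favours a wide HU peak and a narrow asynchronous peak, so these shares are a description. The mimosine centre was a median of 118 bp (102 to 135 bp) from the asynchronous centre, against 159 bp (155 to 163 bp) in the others. The asynchronous peak, whose width enters the rule, was also narrower in members (median 2243 against 2941 bp). Shifts in bp were not scaled to that width, so this difference is a description. The mimosine and HU centres lay on the same side of the asynchronous centre in 234 members (56.0%, 51.1 to 60.8%), against 63.6% of the others. In regions of the same mimosine range whose HU peak was wider by less, the share was 59.5% (2817 of 4732, 58.1 to 60.9%). That interval overlaps the members' interval. Both shifts are taken from the same asynchronous peak, which by itself makes a shared side more frequent. The smallest mimosine ratio, 0.458, was at chr3:28282248-28284844, with 1812 bp asynchronous, 829 bp mimosine and 2597 bp HU.

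Members were spread over all 22 chromosomes. The share of eligible regions that were members ranged from 2.83% (8 of 283, 95% interval 1.23 to 5.49%) on chromosome 4 to 7.04% (34 of 483, 4.92 to 9.70%) on chromosome 3. The interval of each of the 22 chromosomes included the 5.03% of the whole set, so no chromosome stood apart at this number of regions. Chromosome 1 held the most members, 50 of 888 eligible regions.

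**Figure D5:**
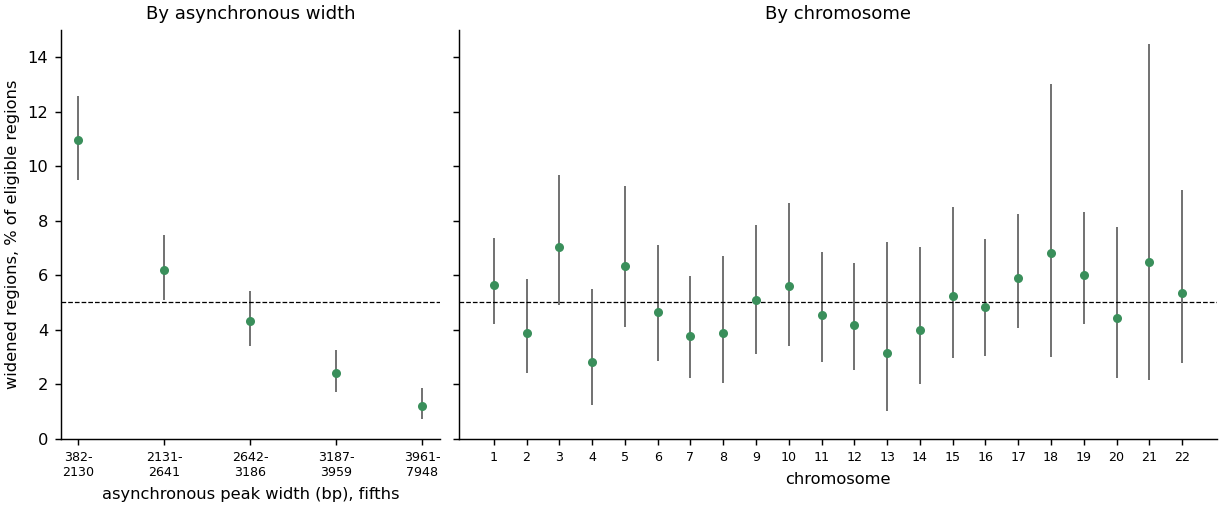
Members as a percent of eligible regions (vertical axis) in 5 equal groups of asynchronous peak width (left) and on each chromosome (right). Bars are exact 95% intervals and the dashed line is the share over all eligible regions, 5.03%. The share is 11.0% in the narrowest and 1.20% in the widest group, while every chromosome's interval crosses the line.

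Members lay beside other members about as often as other regions did. The nearest eligible region was itself a member for 27 of 418 members (6.46%, 4.30 to 9.26%) and for 4.95% (4.48 to 5.45%) of the other eligible regions. The median ratio at that nearest region was 1.10 beside members and 1.09 beside others. The next merged region of any kind was a median of 29732 bp from a member and 29822 bp from the others. With peaks of score 100 or more the distances were 30636 bp (27168 to 34393 bp) and 36970 bp (35573 to 38438 bp). Where peaks were joined only by a reciprocal overlap of 50% they were 19406 bp (16848 to 24336 bp) and 26003 bp (24616 to 27223 bp), so the members' distance was shorter under both settings. In windows of 1 Mb, 272 windows held 1 member, 53 held 2, 12 held 3 and 1 held 4.

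The window of 4 members was on chromosome 17, from 40000001 to 41000000, and had 23 eligible regions. Besides the member at the limit named above, it held chr17:40117989-40121771, with widths of 2127 bp asynchronous, 1477 bp mimosine and 3783 bp HU (ratio 1.78). Its other members were chr17:40924310-40927515, with 2287, 1671 and 3206 bp (ratio 1.4), and chr17:40983829-40988702, with 3228, 2437 and 4874 bp (ratio 1.51). The larger gain was on the left at 2 of the 4 and on the right at the other 2.

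The side of the larger gain was about evenly divided between towards and away from the nearest neighbour. The larger side faced the nearer merged region in 210 of 418 members (50.2%, 45.3 to 55.1%), against 48.8% of other eligible regions. Where a neighbour lay within 5 kb, it did so in 37 of 57 members (64.9%, 51.1 to 77.1%), against 608 of 1252 (48.6%, 45.8 to 51.4%). These shares rest on few members. Distances ran from the ends of the merged region, which include the HU peak. A larger gain on a side therefore shortens the distance there and favours facing the nearer region. Members gained more length by the rule, so the difference within 5 kb is a description. How much of it comes from the shortened distances was not tested.

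HU-only regions lay near members somewhat more often than near other regions in the full lists. Within 50 kb of a member there was a region called in HU cells alone in 64 cases (15.3%, 12.0 to 19.1%), against 879 of 7895 (11.1%, 10.4 to 11.8%). For regions called in asynchronous cells alone the shares were 5.98% (3.91 to 8.70%) and 7.14% (6.59 to 7.73%). An HU-only region also lay within 50 kb of 4 of the 18 regions narrowed by the same factor (22.2%, 6.41 to 47.6%). That wide interval includes the HU-only shares of members and of other regions. With peaks of score 100 or more only, HU-only regions lay near 5.26% of the 380 members of that setting and 4.94% of the others. The filter changes both the members and the HU-only regions, and its part in the difference was not tested.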

How the data were processed

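ChIP-seq peak lists of 3 BRPF3 libraries were used, 1 each from asynchronous, mimosine-treated and HU-treated RKO cells. The authors called each list against the HU IgG library, per the file names. Per the submitters' processing notes, the tools were MACS 1.4.0, Bowtie 0.12.8, bedtools and SAMtools; their order and settings are not given in the sources used here. The deposited files give peak start and end positions, which are the other values used, and a score, which by its form and lowest value of 50 is 10 times the negative base-10 logarithm of a p-value. The score is the authors' own and served only to rank and filter peaks within a list. The notes name hg18 and hg19. Peaks in each list lie past chromosome ends of hg18 and GRCh38, so positions are hg19, counted from 1.

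Members and comparisons were chosen with earlier results of these data known. No gene annotation or genome of hg19 was used, so genes and sequences of members were not analysed here. Shares have exact Clopper-Pearson 95% intervals, and medians have binomial order-statistic intervals. No test was run, since each condition had 1 library. The regions named were the 8 of largest ratio with a score of 100 or more in all lists, the 5 of largest gain, the 5 of highest lowest rank, those 2 on each side of the limit, those of the fullest 1 Mb window, and the extremes of the mimosine ratio. Calculations were made with SciPy 1.17.1, NumPy 2.4.6 and pandas 2.3.3 under Python 3.11.15, and plots with matplotlib 3.10.9. On simulated lists made from 12759 asynchronous peaks with fixed width ratios and no scatter, the code found 100% of planted eligible regions with 0 false calls. That outcome was set by the ratios chosen, so it checks the code and gives no rate of false calls in the real lists.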

Additional observations from a re-analysis of the deposited data

Results flagged for a closer look

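Chromosome X lay outside the chromosomes used for the members, and 16 of its regions met the same width rule. They were 8.38% of 191 eligible regions there (95% interval 4.86 to 13.2%), against 5.03% on chromosomes 1 to 22, and 1 chromosome X region was narrowed by the same factor. The value was noted because it is a signal in data that the comparisons did not use. The interval includes the value of the other chromosomes.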

How the results depend on the processing

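Adding chromosome X or lifting the limit of 8000 bp moved no value beyond its 95% interval or a factor of 1.5 (434 and 423 members). Of the 418 members, 321 were found again with peaks of score 100 or more, 380 under a reciprocal overlap of 50% and 406 with peaks within 1 kb merged. The ratio limit set the count: 831 regions were widened and 55 narrowed at 1.3, and 223 and 8 at 1.5. Dividing by the median ratio, an alternative added after seeing the data, gave 181 and 63. Merging within 1 kb gave 28 narrowed regions. With scores of 100 or more, median widths of members were 2486 bp asynchronous, 1850 bp mimosine and 3919 bp HU, their rank percentiles 54.0, 54.9 and 59.2, and the larger side took 82.5% of the gain. Mimosine and HU centres then lay 136 and 418 bp from the asynchronous centre, and 5.26% of members had an HU-only region within 50 kb. Under the reciprocal overlap, widths were 2355, 1703 and 3633 bp, rank percentiles 50.4, 49.3 and 53.5, the HU centre shift 387 bp and the nearest region 19406 bp away, against 26003 bp in other regions. Merging gave widths of 2348, 1672 and 3696 bp, a centre shift of 411 bp, 82.5% on the larger side, 57.3% of members with 80% or more on 1 side, and 10.6% near an HU-only region, against 8.53% of other regions. At a ratio of 1.5, asynchronous and mimosine widths were 2126 and 1482 bp, rank percentiles 40.2, 36.6 and 45.5, the centre shift 425 bp, and 2.24% of members had a member as nearest eligible region, against 2.50% of other regions. The cause of these shifts was not tested, beyond the fewer or longer peaks each setting makes by construction. Promoter alternatives were not run. No paired analysis was possible because each condition had 1 library. Depth is unknown and limits what a peak's width means.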

Other observations

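In 34 members (8.13%, 95% interval 5.70 to 11.2%) the mimosine score was above the asynchronous score, against 3.45% of the other eligible regions (3.05 to 3.87%). Over the 607 regions chosen by the HU to asynchronous ratio alone the share was 12.5%. Score and width come from the same peak call and the rule favours narrow asynchronous peaks, so these shares are a description. The nearest merged region was called in HU cells alone for 47 members (11.2%, 8.38 to 14.7%) and 8.45% of the others (7.84 to 9.08%), and in all 3 lists for 71.3% and 72.1%. Across the 418 members, which the rule holds to a band of ratios, Spearman's rho between regions was 0.957 for asynchronous and HU width and 0.885 for mimosine and HU width. Over all 8313 eligible regions these values were 0.896 and 0.857, and regions of one list share a library.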
